A study of Mus musculus with 48 samples.

Results

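The measurements described here were the cytosolic RNA of mouse embryonic stem cells after 120 min and after 240 min of a transcription block. A gene was included when it was listed in all 6 cytosolic libraries, 3 at 120 min and 3 at 240 min, and 12507 of the 23862 genes listed anywhere in the series met this rule. Of the 17625 genes listed in any of the 6 libraries, these were 71.0%. For each of them the difference was taken as log2 of the ratio at 240 min minus log2 of the ratio at 120 min, and is called the late change.

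The series held 48 libraries, made from 4 fractions (total, nucleus, cytosol and membrane) at 4 times (30, 60, 120 and 240 min), with 3 replicates of each from independently passaged cells. All cells were of the embryonic stem cell line E14TG2a, grown in serum with LIF, the GSK3 inhibitor CHIR99021 and the MEK inhibitor PD0325901. Every library came from cells given 1 µM flavopiridol, which inhibits CDK9, the kinase of P-TEFb that releases paused RNA polymerase II, and the deposited values are ratios to the level of the same fraction before the drug. Cytosol was the material released by digitonin, membrane the material released afterwards by NP-40, and nucleus the remaining pellet, with cycloheximide in the buffers. Libraries were made from polyadenylated RNA. The titles give 240 min for the last time, whereas the protocol text gives 180 min.

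When synthesis is blocked, the cytosolic level of a transcript falls at the rate at which it leaves the cytosol, once the nuclear pool has been exported. It leaves by degradation or, for transcripts localized to membranes, by transport to them. Short-lived mRNAs, many of them encoding regulators of transcription, signalling and cell division, often carry AU-rich elements in the 3′ UTR, which are bound by proteins that recruit deadenylases. Messages for ribosomal proteins, glycolysis and respiration are known to be long-lived. Export from the nucleus can go on feeding the cytosol at late times, so the ratio between 2 late times is not a measure of degradation alone, and it can also show transcripts that increase again.

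Windows from the 3′ UTRs of 2 transcripts with large late falls and of 3 with large late rises are shown because they hold the same AU-rich heptamer. It was present in 2 of the 12 largest falls and 4 of the 12 largest rises described below, and in 27.3% of the 9233 3′ UTRs of coding genes tested. Miat, Trp53cor1 and Snora68, among the rises, are noncoding and have no 3′ UTR. A link between the heptamer and these changes was not tested. Each window is read 5′ to 3′ on the transcript, with the heptamer TATTTAT in capitals, and comes from the transcript model with the longest coding sequence in the GRCm38 annotation. The lines give the falling transcripts first.
Syt14, chr1:192891511-192891539, minus strand: ttgttatcacaTATTTATatgcacttggt
Fam222a, chr5:114612727-114612755, plus strand: ctagatttgtgTATTTATtacagttgtct
Socs3, chr11:117966139-117966167, minus strand: ctttgcacataTATTTATatttatactca
Hrk, chr5:118186818-118186846, plus strand: tggaaaccacgTATTTATcaaatccgggt
Mthfd2, chr6:83306539-83306567, minus strand: taaaatgtttgTATTTATtgaaagcttaa

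Between 120 and 240 min many more cytosolic transcripts fell than rose, on the scale set by the authors. In limma, with a Benjamini-Hochberg adjusted p under 0.05 over the 12507 genes, 5213 genes fell (41.7% of those tested) and 332 rose (2.65%), so that 44.3% changed in either direction and 6962 did not pass the test. The median late change was -0.48 on the log2 scale, with quartiles of -0.99 and -0.06, and it corresponds to a halving time of 248 min. This value was not particular to the cytosol. Over the genes listed in each, the median was -0.48 in the nucleus (also 248 min), -0.36 in the membrane fraction and -0.23 in total RNA. The medians of the 3 libraries at 120 min were ratios of 0.704, 0.664 and 0.665 to 0 min. At 240 min they were 0.493, 0.491 and 0.471. Every library at 240 min therefore lay below every library at 120 min, and the group means of 0.678 ± 0.0228 (SD, n = 3) and 0.485 ± 0.0119 (SD, n = 3) differed by more than the replicates did. The median change among the genes that fell was -0.99, and 523 of them fell by more than 2 log2 units. Among the genes that rose the median change was 0.90.

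**Figure D1:**
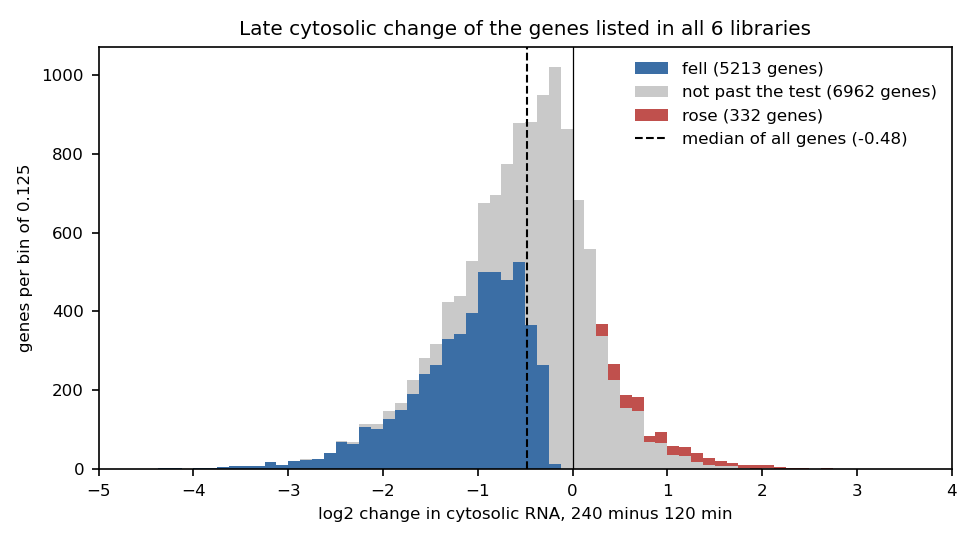
Histogram of the late change (x axis, log2 of the ratio at 240 min minus log2 at 120 min) over the 12507 genes (y axis, genes per bin), coloured by the limma call. The 5213 genes that fell lie left of 0, the 332 that rose right of it, and the dashed line is the median of -0.48.

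The position of 0 on this scale was set by the authors, who scaled the libraries on transcripts known to be long-lived. When each library was instead centred on its median gene, 2477 genes were lower and 1990 higher, and when each was scaled to the same total, 3451 were lower and 940 higher. The medians of gene groups are therefore to be read against the median of all genes, since no rescaling of libraries changes the difference between them. The ratios are relative to the transcripts used for scaling, so they show neither the number of cells nor the absolute RNA per cell. Of 10 markers of naive embryonic stem cells 9 were listed in all 6 libraries, against 2 of 9 primitive endoderm markers, 2 of 9 fibroblast markers and 2 of 9 markers of differentiating cells. The ratios carry no levels, so this is a check of presence alone.

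The depth was read from the ratios themselves. Within a gene they are whole multiples of what 1 read is worth in each library, and for 99.9% of the genes tested whole numbers were found in all cytosolic libraries, within a relative tolerance of 1e-07. The smallest such numbers are called reads here. Summed over genes they gave 5376064 to 5655453 reads at 120 min and 4371852 to 4738695 at 240 min. The median gene had a mean of 47.0 reads over the 6 libraries, and 3098 genes had a mean under 10. The share that fell rose with depth, from 13.8% of genes under 10 reads and 39.1% between 10 and 100 to 62.2% between 100 and 1000, so a gene that did not pass the test may only have been too shallow. Of the calls, 428 falls and 90 rises had a mean under 10 reads. A limma fit of log ratios sees counting error only through the spread between replicate libraries and gives no weight to depth. With voom on the reads, chosen after seeing the data, 5891 genes fell and 404 rose.

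The largest falls belonged to transcripts with halving times between 27.4 and 35.4 min. Ranked by the confidence limit nearer to 0, the 12 largest falls ranged from -4.37 to -3.39 on the log2 scale. In all 12 every library at 240 min was below every library at 120 min, as the way they were chosen favours. Irf2bp1, which encodes a corepressor that binds IRF2, had ratios of 0.206, 0.203 and 0.164 at 120 min and of 0.00972, 0.0119 and 0.00988 at 240 min. Its change was -4.18 ± 0.19 (SE; limma adjusted p = 0.000857), a halving time of 28.7 min with 95% limits of 25.7 and 32.4 min. The reads were 133, 131 and 108 at 120 min and 7, 9 and 7 at 240 min. Pelo, which encodes the factor that rescues stalled ribosomes, had ratios of 0.132, 0.1 and 0.126 at 120 min and of 0.00338, 0.00643 and 0.00859 at 240 min. It fell by 4.37 ± 0.39 on the log2 scale (adjusted p = 0.000964), from 70, 53 and 68 reads to 2, 4 and 5. Hps6, a subunit of the BLOC-2 complex of lysosome-related organelles, went from 0.249, 0.249 and 0.221 to 0.022, 0.012 and 0.0128, a change of -4.0 ± 0.28.

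Per2, a core repressor of the circadian clock, was measured with few reads, 10, 10 and 13 at 120 min and 1 in each library at 240 min. Its ratios still stood at 0.793, 0.795 and 1.02 at 120 min, and at 240 min they were 0.0712, 0.0677 and 0.0724. Earlier ratios spread widely, at 1.54, 0.847 and 0.407 at 30 min and 1.2, 0.522 and 0.449 at 60 min. The course before 120 min is therefore not resolved. The late change of Per2 was -3.61 ± 0.14 (adjusted p = 0.000857), and its halving time over this interval was 33.2 min. The SE rests on the spread between libraries, which with 1 read in each at 240 min can understate counting error. In limma the fall of Per2 did not pass in the membrane fraction (-0.84, adjusted p = 0.217) or in total RNA (-1.48, adjusted p = 0.0559). Syt14, a member of the synaptotagmin family, also stood high at 120 min, at 0.588, 0.617 and 0.843, and was at 0.0481, 0.0228 and 0.0488 at 240 min, or 2, 1 and 2 reads. For the remaining 7 the mean ratio at 120 min lay between 0.131 and 0.4. They were Ddit4l (an inhibitor of mTORC1 signalling), Hpdl, Grhl3 (an epithelial transcription factor), Fam222a, Tcf15 (a basic helix-loop-helix transcription factor), Rpp25l and Zfp213. Of the 12 genes, 11 also passed the test as falls in the membrane fraction, 12 in the nucleus and 10 in total RNA, where the shares of all genes that fell were 26.6%, 36.2% and 18.9%. Of the 12, 6 had transcript models with at most 2 exons, and 3 of these had a single exon (Irf2bp1, Hps6 and Hpdl). Of the 9411 coding genes tested with a transcript model, 339 had 1 exon and 451 had 2.

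Rises were rarer, and the largest began from very different levels. Socs3, the feedback inhibitor of JAK/STAT signalling downstream of LIF (chr11:117966079-117970047), was at 0.0214, 0.0196 and 0.0239 at 120 min and at 0.106, 0.0993 and 0.115 at 240 min. Its late change was 2.31 ± 0.17 (adjusted p = 0.000857), a 4.95-fold rise that left it at 0.107 ± 0.00808 (SD, n = 3) of the level before the drug. Trib1, a pseudokinase that directs C/EBPα to the ubiquitin ligase COP1 (chr15:59648350-59657099), went from 0.0105, 0.0132 and 0.0156 to 0.0568, 0.0765 and 0.0842. This was a rise of 2.47 ± 0.26 (adjusted p = 0.00129), also from a level far below that at 0 min. In both genes the 3 libraries at 240 min were above all 3 at 120 min, as their choice among the largest rises favours. Socs3 had 54 to 67 reads at 120 min and 321 to 349 at 240 min, Trib1 4 to 6 and 24 to 35.

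Hrk, Zbtb20 and Mthfd2 rose above the level before the drug. Hrk, a BH3-only activator of apoptosis (chr5:118164648-118189478), had ratios of 1.09, 1.16 and 1.28 at 120 min and of 5.18, 5.41 and 5.69 at 240 min, a change of 2.21 ± 0.18 (adjusted p = 0.000883). Zbtb20, a zinc finger repressor, went from 1.02, 1.13 and 0.984 to 3.89, 3.96 and 4.28, a change of 1.95 ± 0.14. Mthfd2, the mitochondrial enzyme of one-carbon metabolism (chr6:83305691-83325908), went from 0.812, 0.741 and 0.802 to 1.9, 2.09 and 2.06, a change of 1.36 ± 0.09 (adjusted p = 0.000857). Of the 332 genes that rose, 181 had a mean ratio under 1 at 120 min and over 1 at 240 min, 67 were over 1 at both times and 84 stayed below the starting level at both.

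The other 7 of the 12 largest rises were less uniform between fractions. Nfasc (a neuronal adhesion molecule), Aplp2 (a relative of the amyloid precursor protein), Cidea (a lipid droplet protein), Ubap1l, the long noncoding RNAs Miat and Trp53cor1, and the small nucleolar RNA Snora68 rose by 1.55 to 2.18 on the log2 scale in the cytosol. Aplp2 had ratios of 0.197, 0.197 and 0.097 at 120 min and of 0.619, 0.757 and 0.629 at 240 min, which were 2, 2 and 1 reads and then 7, 9 and 7. The late change of Aplp2 was 2.10 ± 0.31 in the cytosol, 0.02 in the nucleus, -0.20 in the membrane fraction and 0.02 in total RNA. Snora68 was as shallow in the cytosol, with 1, 2 and 2 reads and then 6, 6 and 7. Ubap1l by contrast rose in all fractions, by 1.66 in the cytosol, 1.57 in the membrane fraction and 1.60 in the nucleus. Of the 12 rises, 7 also passed the test in the membrane fraction, 8 in the nucleus and 9 in total RNA, where 2.49%, 3.34% and 3.81% of all genes rose. Trp53cor1, a long noncoding RNA induced by p53, went from 0.54, 0.361 and 0.413 to 1.13, 1.18 and 1.53 (1.55 ± 0.20, adjusted p = 0.00226).

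**Figure D2:**
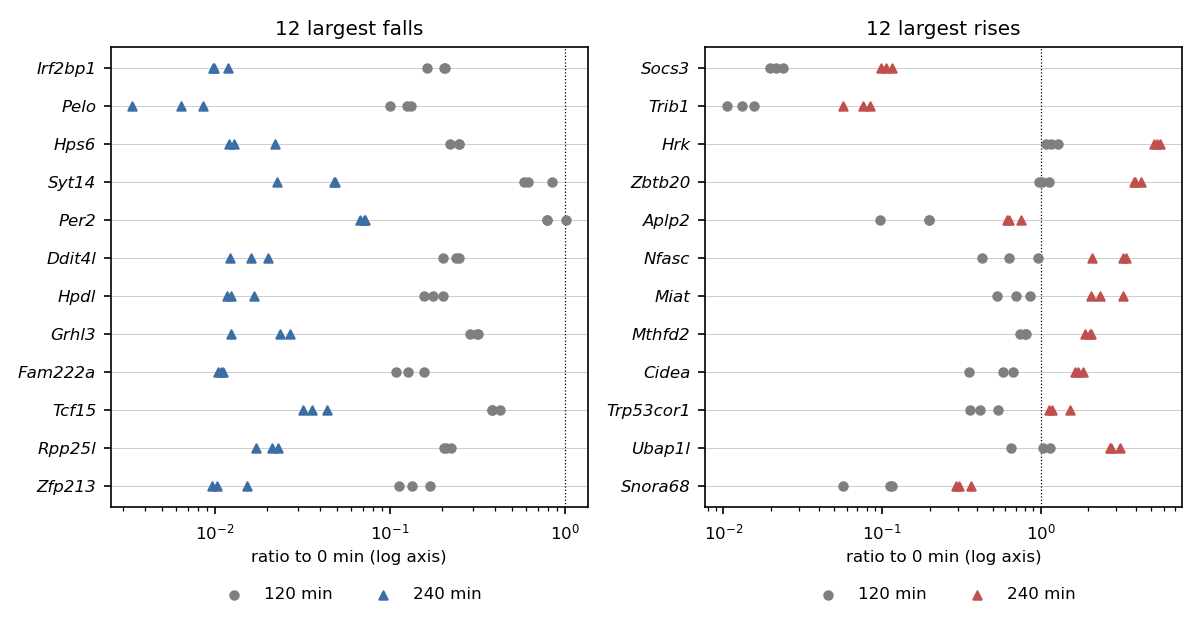
Ratio to 0 min (x axis, log scale) of the 12 transcripts with the largest late falls (left) and the 12 with the largest late rises (right), with each library as a point (grey circles 120 min, coloured triangles 240 min). The 2 times do not overlap for any of the 24 genes, as the way they were chosen favours, and the falls end between 0.00338 and 0.0724 of the level before the drug.

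Transcripts for pluripotency factors had a lower median change than all genes. Counts in this list and those that follow are to be read against the 41.7% of all genes that fell and the 2.65% that rose. Of 19 pluripotency transcription factors tested, 13 fell and 1 rose, with a median of -1.0 (0.51 below that of all genes) and a halving time of 120 min. Sall4, which binds AT-rich DNA in stem cells, went from 0.266, 0.243 and 0.254 to 0.0676, 0.0693 and 0.0622 and fell by 1.94 ± 0.13 on the log2 scale. Klf2 fell by 1.91 ± 0.19 and Sox2, the partner of OCT4, by 1.87 ± 0.17, from 0.0633, 0.0566 and 0.0552 to 0.0149, 0.0162 and 0.0168. Nanog went from 0.502, 0.555 and 0.65 to 0.201, 0.234 and 0.252, a halving time of 91.7 min. Dppa3, which protects maternal methylation after fertilization and is a marker of naive cells, was the member that rose, from 0.696, 0.605 and 0.503 to 0.959, 1.11 and 0.805 (0.67 ± 0.18, adjusted p = 0.0268). Its reads were 15, 13 and 11 and then 23, 28 and 19, and with voom on reads the call was lost (adjusted p = 0.0834).

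Among genes that signalling induces more fell than rose, as among all genes. Of 14 immediate early genes, 7 fell and 1 rose (median -1.07). Btg2, an antiproliferative protein that binds the CCR4-NOT deadenylase, fell from 0.246, 0.222 and 0.203 to 0.0286, 0.0322 and 0.0252, a change of -2.97 ± 0.17 (adjusted p = 0.000857). Fos, a subunit of AP-1, was nearly absent at 120 min, at 0.0171, 0.0171 and 0.0168, and was at 0.046, 0.0438 and 0.0312 at 240 min (1.22 ± 0.22, adjusted p = 0.00765). These were 1 read in each library and then 3, 3 and 2, and with voom on reads the call was lost (adjusted p = 0.234). Of 19 signalling feedback genes, 11 fell (57.9%) and Socs3 alone rose (median -0.82). Axin2, the negative regulator induced by WNT, fell from 0.173, 0.225 and 0.231 to 0.055, 0.0523 and 0.0372 (-2.13 ± 0.23).

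Transcripts of p53 targets fell in most cases. Of 20 tested, 16 fell and none rose, with a median of -1.28, which is 0.79 below that of all genes. Plk2, a kinase of the polo family, fell from 0.0939, 0.0895 and 0.0842 to 0.00952, 0.0136 and 0.0117 (-2.96 ± 0.21). Cdkn1a, the CDK inhibitor p21, fell from 0.0459, 0.0437 and 0.0429 to 0.00846, 0.00804 and 0.0113 (-2.27 ± 0.22, adjusted p = 0.00105). Phlda3 and Ddit4 fell by 2.26 and 2.13 on the log2 scale.

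The BCL2 family, which controls apoptosis at mitochondria, had members that fell and 1 that rose. Of 16 tested 7 fell (43.8%, near the 41.7% of all genes), with a median of -0.68. The BH3-only genes Bbc3 (-2.42 ± 0.41), Bcl2l11 (-2.11 ± 0.22) and Bid (-1.34 ± 0.10) fell, as did the survival gene Mcl1, from 0.22, 0.218 and 0.221 to 0.0917, 0.0968 and 0.1 (-1.19 ± 0.12). Hrk, given above, was the BH3-only gene that rose. All 3 libraries at 240 min were on the same side of those at 120 min for each of these genes, as passing the test on these libraries favours.

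The genes that control transcriptional elongation, to which the target of the drug belongs, fell in most cases. Of 28 tested, 24 fell and none rose, and the median of -1.09 was 0.60 below that of all genes. Hexim1, which with the 7SK RNA holds P-TEFb inactive, fell from 0.244, 0.209 and 0.206 to 0.0231, 0.022 and 0.0242, a change of -3.25 ± 0.16 (adjusted p = 0.000857) and a halving time of 37.0 min. Mepce, which caps 7SK RNA, fell from 0.063, 0.067 and 0.0844 to 0.0108, 0.0108 and 0.0103 (-2.74 ± 0.20). Ccnt2, a cyclin subunit of P-TEFb, fell by 1.47 ± 0.13 on the log2 scale. Among splicing regulators, 13 of 17 SR proteins and CLK kinases fell (median -0.99), led by Clk1 at -2.71 ± 0.23.

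Sterol synthesis gave the lowest median of the 32 lists. Of 22 genes of cholesterol synthesis and uptake, 17 fell and none rose, with a median of -1.36, which is 0.87 below that of all genes, and a halving time of 88.5 min. Hmgcs1, which makes HMG-CoA, had ratios of 0.854, 0.775 and 0.788 at 120 min and of 0.167, 0.14 and 0.121 at 240 min (-2.51 ± 0.15, adjusted p = 0.000857). At 30 and 60 min its mean ratio had been 0.98 and 1.06. Idi1, the isopentenyl diphosphate isomerase, went from 0.927, 0.753 and 0.724 to 0.159, 0.139 and 0.133 (-2.47 ± 0.14), after means of 1.02 at both earlier times. Most of the loss of these 2 transcripts therefore lay in the late interval.

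Of the cell division genes, mitotic regulators were mostly among the falls. Of 38 mitotic regulators 31 fell (81.6%) and none rose (median -0.86). Of 34 replication licensing and fork genes 19 fell (55.9%) and none rose (median -0.53, close to the median of all genes). Of all genes 41.7% fell, and of those with a mean of 100 to 1000 reads 62.2%. The medians of these lists, 886 and 468 reads, lie in that range. Sgo1, the protector of centromeric cohesion, fell from 0.202, 0.199 and 0.205 to 0.036, 0.0469 and 0.0387 (-2.33 ± 0.16). Gins3, a subunit of the replicative helicase, fell by 2.25 ± 0.18 and Cdt1, the licensing factor, by 1.74 ± 0.17 on the log2 scale. The difference between the 2 lists was not tested.

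Of 18 heat shock chaperones 14 fell (77.8%, median -0.62), and Hspa1a, an inducible HSP70, went from 0.477, 0.44 and 0.282 to 0.0343, 0.0163 and 0.0174 (-4.19 ± 0.38, adjusted p = 0.000971), or from 25, 23 and 15 reads to 2, 1 and 1. Reads of Hspa1a and of its near-identical copy Hspa1b, which fell by 3.23 ± 0.52, cannot be fully told apart. Of 22 ER chaperones and unfolded protein response genes 14 fell (median -0.63), with the transcription factor Xbp1 at -2.67 ± 0.20. Of 10 CCT chaperonin and prefoldin genes 4 fell, by at most 0.59 on the log2 scale, near the share of all genes. When libraries were centred on their median gene none of the 10 fell and 3 rose, with Cct6a, Cct8 and Cct2 turned to the other sign, and leaving out single libraries left 2 to 4 falls.

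Genes of mRNA turnover fell in 40 of 52 cases and rose in 2 (median -0.67). Btg1 fell by 2.7 ± 0.31, Smg8, a regulator of nonsense-mediated decay, by 2.05 ± 0.15, and Exosc4, a subunit of the exosome, by 2.10 ± 0.17 on the log2 scale. Elavl1, which encodes HuR, a protein that binds and stabilizes AU-rich mRNAs, rose from 0.959, 0.936 and 0.913 to 1.44, 1.59 and 1.59 (0.72 ± 0.09, adjusted p = 0.00202). The decapping cofactor Dcp1b rose from 0.378, 0.189 and 0.186 to 0.679, 0.807 and 1.9, with a wide spread between libraries (2.10 ± 0.49, adjusted p = 0.0185), from 2, 1 and 1 reads to 4, 5 and 11.

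Lists of basic metabolism and ribosomal proteins had medians near 0. Of 71 cytosolic ribosomal protein genes 9 fell and none rose (median -0.10), of 74 nuclear-encoded respiratory chain genes 9 fell and none rose (median -0.03), and of 15 glycolysis genes 2 fell and 1 rose (median -0.10). The respective shares of falls, 12.7%, 12.2% and 13.3%, are to be read against 41.7% of all genes. The median members had 1890, 357 and 1800 reads, well above the median gene. Of 7 mRNAs encoded by mitochondrial DNA, which is transcribed by another polymerase, none passed the test (median -0.01), and their ratios at 240 min varied between libraries, for example 0.4, 0.475 and 0.802 for mt-Co1. Members that departed from these groups were Hk2, the inducible hexokinase, which fell from 0.582, 0.604 and 0.616 to 0.182, 0.189 and 0.161 (-1.76 ± 0.11), and the complex I subunit Ndufb2, which fell from 1.17, 1.1 and 1.13 to 0.438, 0.478 and 0.467 (-1.30 ± 0.08). Hk1, the constitutive hexokinase, rose from 0.447, 0.449 and 0.661 to 1, 1.53 and 1.02 (1.19 ± 0.24, adjusted p = 0.0112). With 2, 2 and 3 reads and then 5, 8 and 5, this call was lost with voom on reads (adjusted p = 0.104).

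The ribosomal protein genes Rpl28, Rpl18 and Rps9 all fell. They hold the pyrimidine tract typical of such genes at or near the annotated start, as do others that did not fall. Their start sites, from RefSeq promoters of GRCm38.p6, are shown from 10 bases before to 20 after the start, with the tract in capitals.
Rpl28, chr7:4792955-4792984, plus strand: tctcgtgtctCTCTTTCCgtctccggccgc
Rpl18, chr7:45718061-45718090, plus strand: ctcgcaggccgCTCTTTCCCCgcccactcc
Rps9, chr7:3704031-3704060, plus strand: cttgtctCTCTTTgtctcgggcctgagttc
Rpl28 fell from 0.695, 0.736 and 0.829 to 0.335, 0.375 and 0.299 (-1.17 ± 0.13, adjusted p = 0.0014). Rpl18 fell by 1.26 ± 0.17 and Rps9 by 1.24 ± 0.18 on the log2 scale, the latter from 8, 8 and 7 reads to 3, 4 and 4. Mean reads were 204 for Rpl28, 36.8 for Rpl18 and 5.67 for Rps9, against a median of 1890 for the list. Of the other members that fell, Rpl7l1 had a mean of 4870, Rps25 129, Rps28 81.0, Rps27a 13.5, Rpl9 3.0 and Rpl35a 2.17. With voom on reads the calls of Rpl9 and Rpl35a were lost (adjusted p = 0.0563 and 0.135). Ribosomal protein genes have many processed pseudogenes, so their reads may be split among copies. A tract was counted where a C lay within 5 bases of the start and at least 5 bases that are C or T followed it on the strand of the gene. It was present in 41.5% of the 53 ribosomal protein genes with a promoter entry and in 12.4% of all 7269 coding genes tested that had one (10.2% of all 32851 entries). Of the 22 ribosomal protein genes with a tract 4 fell (18.2%), and of all 53 with an entry 8 (15.1%). Outside the family, 45% of the 880 genes with a tract fell and 48.6% of all 6367 genes without one.

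Among the remaining lists, those of protein complexes lay between these extremes. The share that fell was 36 of 64 mitochondrial ribosomal proteins (median -0.44), 16 of 40 proteasome subunits (-0.20), 27 of 61 translation factors (-0.36) and 6 of 14 Hnrnp genes (-0.33), and 1 translation factor gene, the elongation factor kinase Eef2k, rose (0.25 ± 0.07), though not with voom on reads (adjusted p = 0.373) nor in any of the 6 fits without 1 library. Of 14 tubulins and actins 8 fell (-0.38), with Tubb4b from 0.709, 0.639 and 0.715 to 0.314, 0.29 and 0.295 (-1.20 ± 0.09). Of 29 matrix and adhesion genes, whose mRNAs are translated at the membrane of the ER, 5 fell (-0.20). Among 17 polycomb and DNA methylation genes 10 fell (-0.69), with Cbx2, a chromobox subunit of polycomb complex PRC1, at -2.77 ± 0.19. Of 221 numbered Zfp genes 130 fell and 2 rose (-1.05), so this large family of zinc finger factors lay 0.57 below the median of all genes. The 2 that rose were Zfp827 (0.80 ± 0.12) and Zfp521 (0.64 ± 0.20), the latter not with voom on reads (adjusted p = 0.138) and lost in 4 of 6 fits without 1 library. Of 140 solute carriers 45 fell and 5 rose (-0.36), the latter being Slc25a18, Slc17a9, Slc7a5, Slc2a3 and Slc47a1, with changes of 0.34 to 2.11. Slc47a1 did not pass with voom on reads (adjusted p = 0.32). Without single libraries Slc17a9 and Slc47a1 were each lost in 4 of 6 fits (highest adjusted p = 0.0703 and 0.0844), and Slc25a18 (0.0697, without 240 min replicate 3) and Slc2a3 (0.051, without 240 min replicate 2) in 1 each. Of 26 replication-dependent histone genes, whose mRNAs mostly lack a poly(A) tail, 1 fell (-0.17) at a median of 5 reads, and of 9 host genes of small nucleolar RNAs 3 fell (-0.20).

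Of 11 genes of iron uptake, storage and sensing, 6 fell and none rose (median -0.79). Tfrc, the transferrin receptor, whose mRNA is stabilized by iron regulatory proteins, fell from 0.33, 0.296 and 0.279 to 0.137, 0.147 and 0.134 (-1.11 ± 0.12, adjusted p = 0.00154), a halving time of 108 min with limits of 84.2 and 150 min. Its late change was -1.37 in the membrane fraction and -1.09 in the nucleus. Ireb2, which encodes an iron regulatory protein, fell by 1.02 ± 0.09 on the log2 scale. Nf1, which encodes neurofibromin, a negative regulator of RAS, fell from 0.571, 0.57 and 0.515 to 0.31, 0.375 and 0.412 (-0.60 ± 0.13, adjusted p = 0.0159), a call that was lost when either of 2 single libraries was left out (highest adjusted p = 0.0542).

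Of 12 nuclear long noncoding RNAs that were detected in the cytosol, 6 fell and 2 rose (median -0.39). Kcnq1ot1, which silences a domain of imprinted genes, had mean ratios of 1.54 at 30 min and 3.52 at 60 min, then 1.84, 1.69 and 1.62 at 120 min and 0.707, 0.715 and 0.779 at 240 min (-1.23 ± 0.09, adjusted p = 0.000857). Neat1, the scaffold of paraspeckles, had means of 0.58 and 1.2 at the 2 early times, was at 2.21, 2.15 and 1.8 at 120 min and at 1.5, 0.916 and 0.964 at 240 min (-0.90 ± 0.23). Miat, from 0.702, 0.528 and 0.864 to 2.36, 3.3 and 2.08, rose (1.89 ± 0.26, adjusted p = 0.0028), with 3 to 5 reads and then 13 to 22. Gm26917 was the other that rose, a call that was lost in 5 of the 6 fits that left out 1 library (highest adjusted p = 0.0798).

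**Figure D3:**
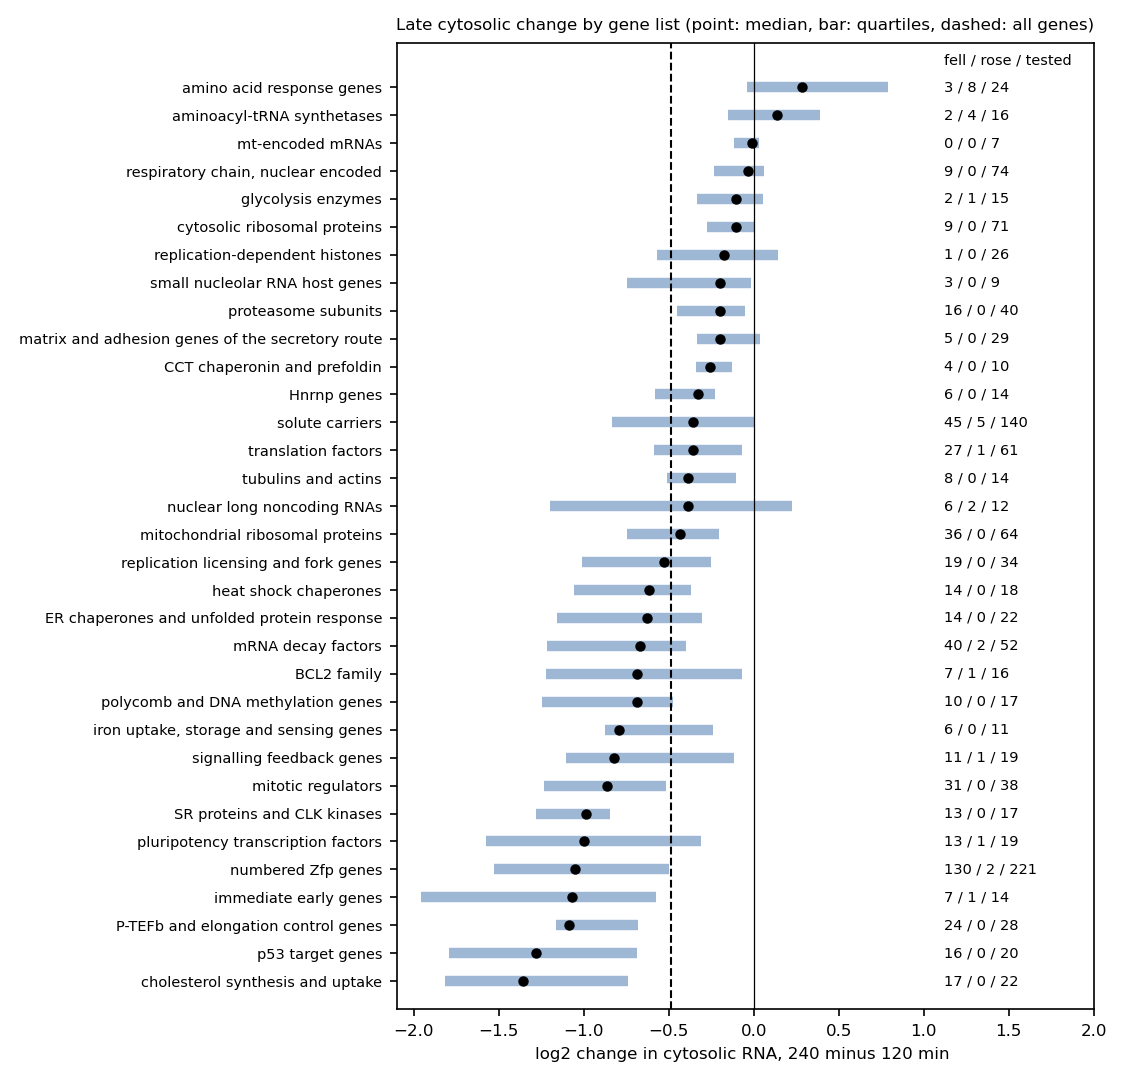
Late change (x axis, log2) of the gene lists, with the median of each list as a point, its quartiles as the ends of a bar, and the numbers that fell, rose and were tested at the right. The dashed line is the median of all genes. Cholesterol genes (-1.36) and p53 targets (-1.28) lie furthest to the left, and only aminoacyl-tRNA synthetases (0.14) and the amino acid response genes chosen after their values were seen (0.28) lie to the right of 0.

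Aminoacyl-tRNA synthetases, which charge tRNAs with amino acids, were the only list of those above with a median over 0. Of 16 tested, 4 rose and 2 fell (median 0.14, 0.62 above that of all genes), and the share that rose, 25.0%, is to be read against 2.65% of all genes. Sars rose from 1.01, 1.88 and 1.28 to 3.25, 3.83 and 3.43 (1.37 ± 0.27, adjusted p = 0.00972), with 7, 13 and 9 reads and then 25, 31 and 26. Yars rose from 1.01, 0.896 and 0.89 to 1.51, 1.48 and 1.54 (0.70 ± 0.09), Nars from 1.1, 1.03 and 1.05 to 1.52, 1.46 and 1.52 (0.50 ± 0.08) and Aars from 1.07, 1.04 and 1.07 to 1.38, 1.33 and 1.36 (0.36 ± 0.08). For each of the 4 all libraries at 240 min were above all those at 120 min, as passing the test on these libraries favours. Those that fell were Rars (-0.42 ± 0.08) and Aimp2 (-0.92 ± 0.22), the latter a scaffold of the multisynthetase complex rather than a synthetase.

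These synthetase genes and several metabolic genes that rose are known targets of ATF4, the transcription factor of the amino acid and integrated stress responses. A list of such genes was therefore added after the values had been seen, and its counts describe the members without supporting anything. Of 24 tested, 8 rose and 3 fell (median 0.28). The 8 that rose were Bcat2, a branched-chain aminotransferase (1.89 ± 0.40), Nupr1, a stress-induced chromatin protein (1.38 ± 0.16), Mthfd2 (1.36 ± 0.09), Gpt2, a mitochondrial alanine aminotransferase (1.21 ± 0.13), Pck2 (0.90 ± 0.10), the large amino acid transporter Slc7a5 (0.75 ± 0.08), Cth of cysteine synthesis (0.51 ± 0.08) and Psat1 of serine synthesis (0.51 ± 0.10). Nupr1 went from 1.5, 1.18 and 1.21 to 3.19, 3.37 and 3.48, and Gpt2 from 0.878, 0.711 and 0.819 to 1.68, 2.05 and 1.82. Late changes of Mthfd2, Nupr1 and Gpt2 were also over 1 in the membrane fraction (1.66, 1.48 and 1.20) and the nucleus (1.55, 1.61 and 1.04). The members that fell encode regulators, namely the transcription factor Cebpg (-1.66 ± 0.28), the pseudokinase Trib3 (-1.22 ± 0.27) and Sesn2 (-0.89 ± 0.13), which inhibits mTORC1. Atf4 mRNA itself fell from 0.103, 0.0733 and 0.0845 to 0.026, 0.0307 and 0.0328 (-1.53 ± 0.21, adjusted p = 0.00281).

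The time courses differ in where the change lies. To ask whether a transcript changed at another rate late than early, the rate per hour between 120 and 240 min was compared with that between 30 and 60 min, in 1 limma fit of the 12 cytosolic libraries. Of 11979 genes tested, 54 differed (0.451%), 21 with a more negative and 33 with a more positive late rate. The median rates over all genes were -0.27 log2 units per h early, -0.35 between 60 and 120 min and -0.25 late. With a replicate block 0 genes with a more negative and 6 with a more positive late rate remained. Genes named below with a more negative late rate are therefore not calls under that fit. For Socs3 the ratios were 0.364, 0.337 and 0.374 at 30 min and 0.0695, 0.0597 and 0.068 at 60 min, so that an early rate of -4.89 per h stood against a late rate of 1.15 (difference 6.05 ± 0.28, adjusted p = 2.04e-05). For Trib1 the ratios were 0.632, 0.641 and 0.656 at 30 min and 0.131, 0.133 and 0.188 at 60 min, with rates of -4.23 and 1.23 per h (difference 5.46 ± 0.45, adjusted p = 0.00185). Both therefore fell first and rose later. The opposite order was found for Kcnq1ot1, with 2.44 per h early and -0.61 late (difference -3.05 ± 0.34, adjusted p = 0.0112). Fut9, a fucosyltransferase that makes the Lewis x antigen, rose at 2.69 per h early and stood at -0.05 per h late (difference -2.75 ± 0.37). Its ratios were 3.01, 3.1 and 2.98 at 120 min and 2.88, 2.83 and 2.73 at 240 min.

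**Figure D4:**
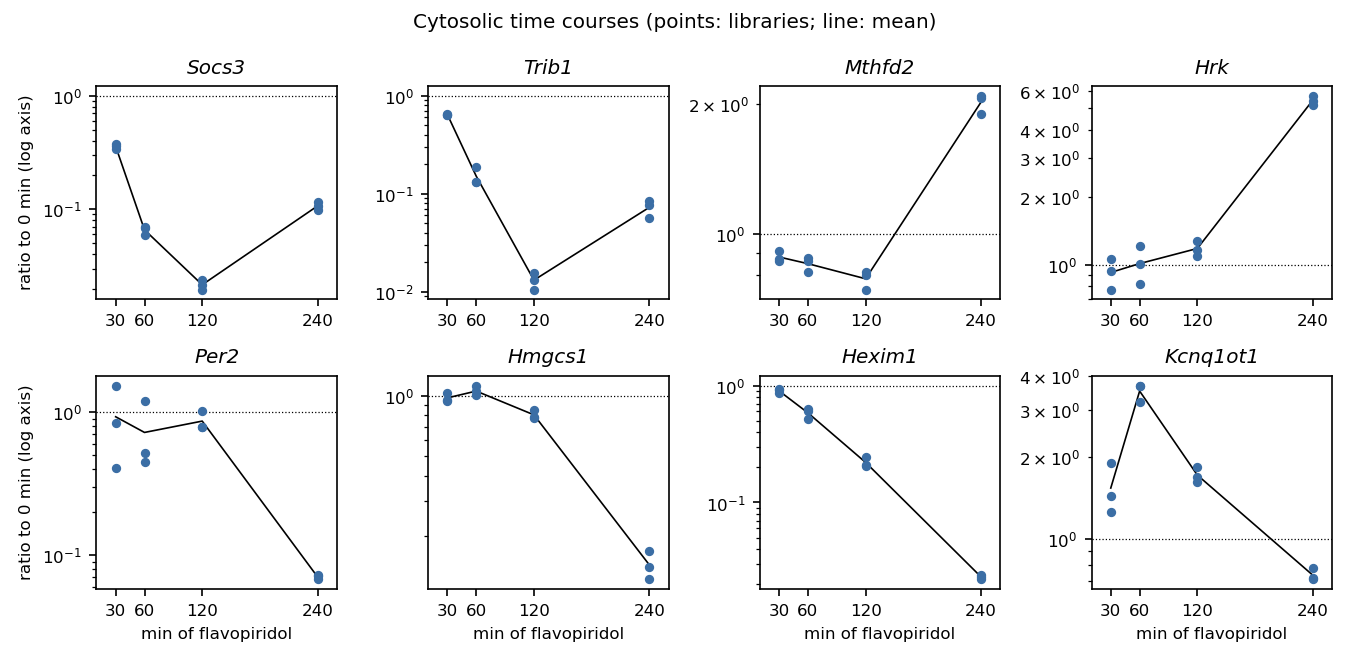
Ratio to 0 min (y axis, log scale, own range per panel) of 8 transcripts in the cytosol at 30, 60, 120 and 240 min (x axis), with libraries as points and the mean as a line. Socs3 and Trib1 fall until 120 min and are higher at 240 min, and Mthfd2 and Hrk lie above 1 at 240 min. The means of Per2 and Hmgcs1 fall mostly after 120 min, though the early points of Per2 spread widely.

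The level already reached at 60 min went along with the late change over the 12184 genes listed in all 3 cytosolic libraries of that time (Spearman rho 0.21). These points share the libraries of each time and are no independent replicates. The 1067 genes with a log2 ratio of -1 or less at 60 min had a median late change of -0.82, whereas the 2193 genes between 0 and 0.5 had one of -0.31. The share of genes that passed the test as falls was 36.7% in the first group and 31.5% in the second, and it was highest, at 49.1%, between -0.5 and 0.

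Features of the transcript models were compared next, for 9411 of the 9435 coding genes tested. They are descriptions across genes within the same 6 libraries, and genes are not independent replicates. The 9233 genes with a 3′ UTR were binned by copies of ATTTA on the strand of the transcript. Genes without ATTTA had a median change of -0.35 and 36.7% of them fell, and genes with 9 or more copies had a median of -0.67 with 63.7% that fell (rho -0.16). At least 1 copy was present in 66.7% of the 3′ UTRs. The heptamer TATTTAT, which contains ATTTA, was present in 27.3% of the 3′ UTRs. Genes without it had a median of -0.46, genes with 1 copy -0.63 and genes with 2 or more -0.66, while the shares that rose were 2.67%, 2.76% and 2.57%. The shares that rose with and without the heptamer of the Socs3, Hrk and Mthfd2 windows thus differed little.

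Length of the 3′ UTR and exon number also went along with the late change. A 3′ UTR of at most 250 nt went with a median of -0.25 and one of 2001 to 4000 nt with -0.63 (rho -0.15), and since long 3′ UTRs hold more motifs the 2 features cannot be told apart here. Genes with 2 exons had a median of -0.94, genes with 1 exon -0.79 and genes with 6 to 10 exons -0.47 (rho 0.10). With at most 2 exons and 3 or more copies of ATTTA the median was -1.14 and 62.0% of 242 genes fell, and with 3 or more exons and no copy it was -0.32 and 36.2% of 2814 genes fell. The share of G or C at the last codon position, a feature added after the data were seen, gave a median of -0.77 at up to 45%, where 64.7% fell and 0.543% rose, and of -0.38 between 65% and 70%, where 39.5% fell and 4.26% rose (rho 0.12).

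**Figure D5:**
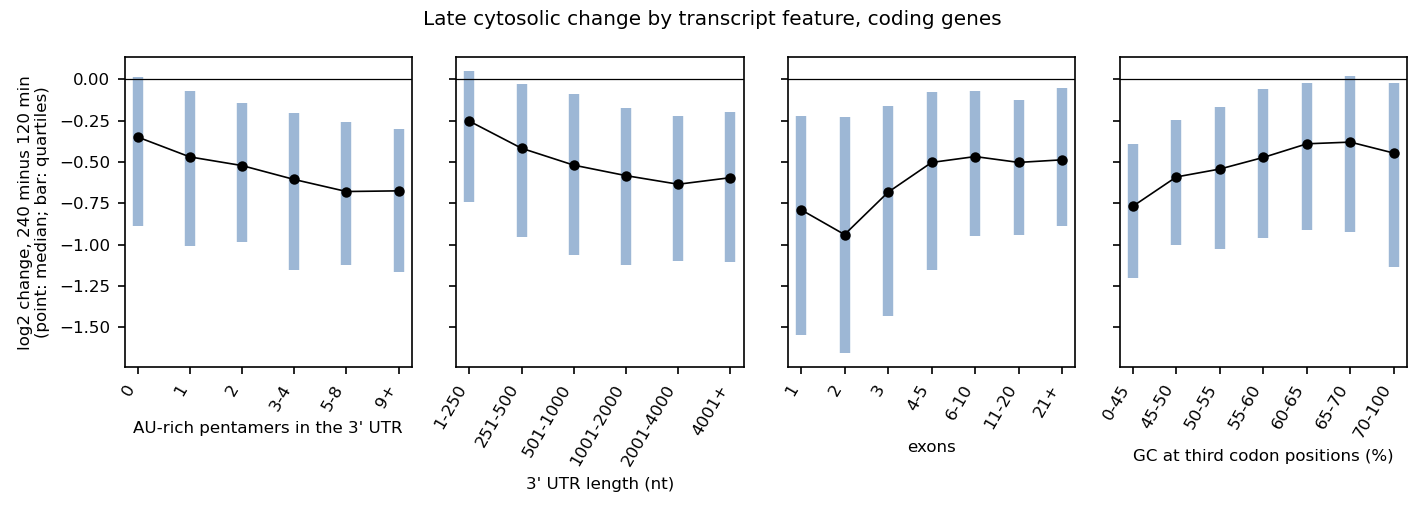
Late change (y axis, log2) of coding genes by the number of AU-rich pentamers in the 3′ UTR, the length of the 3′ UTR, the number of exons and the share of G or C at the last codon position (x axes). Points are medians and bars span the quartiles. The median runs from -0.35 without a pentamer to -0.67 with 9 or more, and from -0.94 with 2 exons to -0.47 with 6 to 10.

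By annotated class, coding transcripts had a median late change of -0.52 and 47.2% of them fell. Of 1049 processed pseudogenes 11.1% fell (median -0.21), with a median of 8.83 reads against 83.3 for coding genes. Of 421 lincRNAs 24.9% fell and 5.46% rose (median -0.36), and of 759 antisense transcripts 38.7% fell (median -0.51). These 2 classes had medians of 12.3 and 22.3 reads, and the share that falls depends on depth, as given above.

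The late change in the cytosol was set against those of the nuclear and the membrane fraction by the interaction of time and fraction. Against the membrane fraction 10 of 11506 genes differed (0.0869%), 5 lower and 5 higher in the cytosol, and 1484 had an unadjusted p under 0.05. Among genes with a mean of at least 10 cytosolic reads 17 were lower and 12 higher, and leaving out single cytosolic libraries left 0 to 1 and 0 to 5. The fractions come from the same harvests, and with the harvest as a block or with a replicate block no gene passed, so the genes named here are not calls under those fits (adjusted p = 0.247 and 0.33 for Il17ra and for Slc27a3). Il17ra, a subunit of the interleukin 17 receptor, rose in the cytosol from 0.3, 0.181 and 0.118 to 0.539, 0.666 and 0.493, while in the membrane fraction it went from 0.441, 0.434 and 0.464 to 0.156, 0.0958 and 0.13. Its cytosolic reads were 5, 3 and 2 and then 10, 13 and 9 (difference 3.43 ± 0.43, adjusted p = 0.0423). Slc27a3, of the fatty acid transport family, had a late change of -0.21 in the cytosol and of -1.65 in the membrane fraction (difference 1.44 ± 0.15, adjusted p = 0.0303).

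Against the nucleus 121 of 11769 genes differed (1.03%), 86 lower and 35 higher in the cytosol, and with at least 10 reads 277 and 97. Caprin1, an RNA-binding protein of stress granules, fell in the cytosol from 0.729, 0.758 and 0.708 to 0.338, 0.35 and 0.334, while in the nucleus it stood at 1.13, 0.979 and 1.1 and then at 1.54, 1.4 and 1.69 (difference -1.63 ± 0.13, adjusted p = 0.00214). Ogt, which attaches O-GlcNAc to nuclear and cytosolic proteins, fell in the cytosol from 0.763, 0.879 and 0.765 to 0.172, 0.191 and 0.149, and its late change of -2.24 stood against -0.49 for the nucleus and -0.93 for the membrane fraction (difference from the nucleus -1.75 ± 0.20, adjusted p = 0.0196). Aplp2, given above, differed in the other direction (2.08 ± 0.36, adjusted p = 0.0355). These counts fell when any of the 6 cytosolic libraries was left out, to 2 to 49 lower and 0 to 15 higher. With the harvest as a block no gene passed (adjusted p = 0.123 for Caprin1, Ogt and Aplp2), and with a replicate block Caprin1 and Ogt alone did (adjusted p = 0.0475 for both).

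Transcripts that left or entered the list could not be tested, since a gene at 0 is not listed. At 120 min 115 genes were listed in all 3 cytosolic libraries and at 240 min in none, 73 of them coding, and 51 genes showed the reverse, 26 of them coding. Those with the highest mean ratio at 120 min were Btbd17 (0.817, 3.28 and 3.22), Grpr (1.1, 2.75 and 1.08), Cipc (0.82, 0.822 and 2.42), Rab40b and Nmrk1. Those listed at 240 min alone were led by Nwd1 (1.48, 3.51 and 2.25), Adam12, Fezf1, Scd4 and Tmem154. These were genes at a few reads, with 1, 4 and 4 for Btbd17, 2, 5 and 2 for Grpr, 1, 1 and 3 for Cipc and 2, 5 and 3 for Nwd1, so that their absence at the other time is near what the depth can show.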

How the data were processed

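Polyadenylated RNA of 48 libraries was sequenced by the authors, and the 6 cytosolic libraries of 120 and 240 min are the main data here. Per the submitters' processing notes, STAR 2.7.6, RSEM 1.3.3 and mm10 were used. The authors scaled libraries on long-lived genes and divided by the 0 min level, so that the deposited values are ratios to 0 min. Genes at 0 are not listed. Whole reads were recovered in the cytosol from the common steps of these ratios, for genes listed in at least 3 libraries, and a gene whose reads share a factor in every library would come out too low.

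Log2 ratios without a pseudocount were tested in limma 3.58.1 (R 4.3.3, moderated with a mean trend), two-sided, at a Benjamini-Hochberg adjusted p under 0.05. The halving time is 120 min divided by minus the late log2 change. Differences between fractions and between intervals were contrasts, each in a fit of 12 libraries. On simulated data of 12507 genes, 200 of them altered, the late test recovered 60% of those altered by 2 and 40% of those altered by 1 on the log2 scale, with 7 false calls. The altered share was far below the 44.3% called in the data. The simulated noise was normal with the residual spread of each gene and was not drawn as reads. The recovery therefore does not describe the test on the data.

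Of 23862 identifiers 23786 matched a symbol. Named genes were the 12 largest falls and 12 largest rises by the 95% limit nearer to 0, among genes listed in all 48 libraries, past the test, with 1 sign in every replicate number and no predicted name, plus Nf1 and Tfrc, up to 4 per list, 4 in each direction of each difference and 5 unlisted genes. Members that moved against their list, and the list of amino acid response genes, were chosen after their values were seen. The genes and the 32 other lists were chosen with earlier results of these data known. Alternatives were a replicate block, no trend, other scalings, pseudocounts of 0.1 and 1, other filters and leaving out each library. A filter on reads, voom on reads and the third codon position were added after seeing the data.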

Additional observations from a re-analysis of the deposited data

Results flagged for a closer look

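The late change differed between fractions for some transcripts, by the test of the difference itself. Against the membrane fraction 10 genes passed, and against the nucleus 121. The fractions of a harvest come from the same cells, and with the harvest as a block all of these calls were lost (0 genes against either fraction). With a replicate block 0 remained past the test against the membrane fraction and 2, Caprin1 and Ogt, against the nucleus. The values below are therefore differences whose call depends on the fit. Lower in the cytosol than in the membrane fraction were B4galnt2 (difference -1.71), a glycosyltransferase that rose in the membrane fraction from 2.34, 1.95 and 1.97 to 6.59, 6.6 and 6.08, Ogt (-1.31) and Nktr (-1.05). Higher in the cytosol were Il17ra (3.43), Elovl7 (1.46), an elongase of fatty acids, Slc27a3 (1.44) and Slc35g1 (1.15).

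Against the nucleus the cytosol was lower for Syt14 (-3.44), Mrm2 (-2.37), which methylates mitochondrial rRNA, Ogt (-1.75) and Caprin1 (-1.63). It was higher for Tmbim1 (2.38), Carmil3 (2.24), Aplp2 (2.08) and Rab26 (1.97). Tmbim1 was listed in the nucleus at 0.0809, 0.0757 and 0.0602 at 120 min and at 0.0155, 0.0185 and 0.0113 at 240 min, while its late change in the cytosol was 0.10. Some of these rest on few cytosolic reads. At 240 min Syt14 had 2, 1 and 2 reads and Carmil3 7, 4 and 5, and at 120 min Il17ra had 5, 3 and 2 and Aplp2 2, 2 and 1. No group had more than 3 libraries, so single libraries were not tested for standing apart.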

How the results depend on the processing

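The number of cytosolic transcripts that fell or rose between 120 and 240 min (5213 and 332) depended on the scaling. It was 2477 and 1990 when libraries were centred on their median gene, 3451 and 940 at equal totals and 1805 and 156 with libraries scaled to mt-encoded mRNAs, whose levels differed between libraries. The median change was then 0 by construction when centred (-0.0016), and it was -0.20 at equal totals, -0.39 with a pseudocount of 0.1 and -0.15 with a pseudocount of 1. Leaving out each library in turn gave 4279 to 4789 falls, 225 to 316 rises and medians from -0.50 to -0.46. With 180 min as the last time the halving time would be 124 min. Listing in at least 2 of 3 libraries gave 364 genes no longer listed and 189 listed at 240 min only.

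The replicate numbers did not pair the libraries. Deviations of libraries with the same number correlated at 0.0231, -0.00325 and 0.0309, and with a replicate block 4706 genes fell and 273 rose. The block left 0 lower and 0 higher genes against the membrane fraction, 2 and 0 against the nucleus, and 0 and 6 for the rate.

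Counts of differences moved with most settings, and the cause was not tested. Lower and higher genes against the membrane fraction (5 and 5) were 8 and 24 when centred, 18 higher at equal totals, 0 and 0 with mt scaling, 105 and 52 with a pseudocount of 1, 0 and 0 with listing in at least 2 of 3 libraries, 0 and 0 with the harvest as a block and 17 and 12 with at least 10 reads. Against the nucleus (86 and 35) they were 286 and 128, 260 and 134, 195 and 0, 502 and 128, 49 and 23, 0 and 0, and 277 and 97 in the same order, and 133 were lower among genes listed in all 48 libraries. For the rate (21 and 33) they were 34 and 66 when centred, 137 and 62 at equal totals, 7 and 5915 with mt scaling, 62 and 306 and then 114 and 842 with pseudocounts of 0.1 and 1, 210 and 579 with 30 to 120 min as the early interval, and 58 higher with at least 10 reads. Leaving out each library gave 0 to 1 lower and 0 to 5 higher against the membrane fraction, 2 to 49 and 0 to 15 against the nucleus, and 4 to 24 and 12 to 38 for the rate, where 120 min replicate 1 (4 and 12) and replicate 3 (10 and 16) moved it by over 1.5 times.

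Gpi1 turned positive when centred (0.21) and at equal totals (0.0123), as did Cct6a (0.0923), Cct8 (0.16), Cct2 (0.14), Hnrnpd (0.0165) and Snhg14 (0.0844) when centred. Of 192 named genes 93 kept their call and direction under every alternative that could be computed for them, among them the 24 largest falls and rises. Calls lost when single libraries were left out included Nf1 (highest adjusted p = 0.0542 in limma), Dppa3 (0.0734), Dcp1b (0.0607), Aimp2 (0.0694), Neat1 (0.0788), Il17ra (0.0538), Trib3 (0.0506), Gm26917 (0.0798), Cct2 (0.0924), Cct8 (0.0554), Eef2k (0.0951) and Zfp521 (0.131). Depth limits the genes under 10 reads most.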
